A study of Nilaparvata lugens with 9 samples.

Results

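Small RNA of short-winged (SW) female adults of the brown planthopper (BPH), Nilaparvata lugens, holds known miRNAs and predicted candidate miRNAs, whose names begin with PC. The 221 candidates described here are single-locus PC miRNAs, which have 1 entry and hence 1 predicted hairpin in the expression table, with a mature sequence of 21, 22 or 23 nt. They are 221 of the 767 miRNA names in the table, and 221 of the 482 single-locus PC names. The names PC-3p-2015_2755 and PC-5p-24585_327 were left out by the selection, which took 221 of 223. The selection used the name, the number of entries and the length, and no read count. Of the 221 members, 65 were 21 nt, 105 were 22 nt and 51 were 23 nt long.

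The 9 libraries were made from whole bodies of untreated SW insects at 1, 3 and 5 days after emergence (1 d, 3 d and 5 d), with 3 libraries for each phase, to follow miRNAs during reproductive development. The insects descended from a field population and were reared on the susceptible rice TN1. The female sex is stated in the methods of the study and not in the sample labels, and the table holds no marker of sex, wing form or phase to check the labels with. The methods describe groups of insects whose RNA was pooled, and do not state whether the 3 libraries of a phase were separate pools, so p-values measure only the spread between these libraries, which may be technical. Because RNA came from whole bodies, fewer cells of a type and less RNA per cell cannot be told apart in any level below.

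MiRNAs are cut from a hairpin precursor in steps by the enzymes Drosha and Dicer, and one strand of the resulting duplex is kept by an Argonaute protein. The kept strand can come from the 5p or the 3p arm of the hairpin, and the other strand is usually degraded. Bases 2 to 8 of the miRNA, the seed, pair with target mRNAs, so miRNAs with the same seed are placed in one family. In insects, miRNAs act in moulting, metamorphosis, vitellogenesis and egg production. The names of the known miRNAs in the table carry the species of the nearest entry in miRBase, with R or L for bases added to or missing from the 3′ or 5′ end.

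The libraries held between 972506 and 3184052 reads on the listed miRNAs, with the fewest in 1 d replicate 2, the library with the least detail on rare members. Levels are given as CPM, counts scaled to a library of 1000000 reads with TMM factors, and each read stands for 1 whole miRNA, so no correction for length applies. The libraries of a phase correlated with Pearson's r of 0.887 to 0.973 on log2(CPM + 1). This covers the 341 sequences that passed a filter on low counts, where miRNAs are no independent replicates. The reads carry no molecular identifiers.

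The mature sequences below are those of members that the results turn on, abundant and rare, placed with the members of the same seed, with bases 2 to 8 in capitals and T for U. The first pair has the seed of miR-2765, the next group that of miR-279, and the group after it that of the miR-2/miR-13 family. The following lines show the single members with the seeds of miR-278, miR-316, miR-981 and miR-29b, and the last 4 lines the seed of the 3p arm of miR-9 and a seed that is shifted by 1 base from it.
PC-5p-15_408936: tGGTAACTccgaaccaccgttgg
PC-5p-202_34820: tGGTAACTccacaccaccgttgg
PC-3p-31_242819: tGACTAGAtccacactcaaca
PC-3p-343_19445: tGACTAGAtccttactcgtctga
PC-3p-2920_1945: tGACTAGAcctaatactcgcta
PC-3p-57388_137: tGACTAGAtcctgccccccaat
PC-3p-129295_51: tGACTAGAgttacactcgtcaa
PC-3p-162_42907: cATCACAGtttcagccccgaga
PC-3p-592_10301: tATCACAGccactttgatgaaca
PC-3p-505_12204: tCGGTGGGactttcgtccgtca
PC-3p-430_14726: aCAGCAAAgtgaaaaggaccga
PC-3p-1170_4877: tTCGTTGTcgacgaaactcaga
PC-3p-1708_3191: tAGCACCAtagcattcagctt
PC-3p-576_10624: aTAAAGCTacattaccgaagtc
PC-3p-91528_79: tTAAAGCTtttttaaaccggtaa
PC-3p-2060_2700: tAAAGCTAgttgaatatgtaaa
PC-3p-1061_5395: tAAAGCTAgtataccaaagtca

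Reads were concentrated on few members. Over the 9 libraries a member held between 4 and 709129 reads, with a median of 47. There were 37 members with fewer than 10 reads, 100 with 10 to under 100, 54 with 100 to under 1000, 18 with 1000 to under 10000 and 12 with at least 10000. The most abundant member, PC-5p-15_408936, held 48.7% of all member reads, the first 2 held 74.1%, the first 5 held 85.8% and the first 12 held 94.3%. The median of the members was above that of the single-locus PC miRNAs of 18 to 20 nt (27 reads) and of 24 to 26 nt (19 reads), and below that of the 205 known miRNAs (501 reads). These class medians are descriptions of sets that the length rule separated, and no test was made between them.

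Most reads, but few members, carried the seed of a known miRNA in the table. Seeds were compared with these known miRNAs only, and other families in miRBase were not searched. The 20 members that shared bases 2 to 8 with a known miRNA of the table were 9.05% of the members and held 92.9% of their reads. Among the 341 other PC names, 25 shared a seed with a known miRNA and held 70.9% of the reads of those names. The miR-2765 seed accounted for 53.5% of member reads with 2 members, the miR-279 seed for 27.4% with 5 members and the miR-2/miR-13 seed for 6.79% with 2 members. Seeds were read from the mature sequence, and the listed hairpin of PC-3p-57388_137, counted under miR-279, differs from it within the seed. The 221 members had 204 different seeds, and 13 of these were held by more than 1 member.

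**Figure D1:**
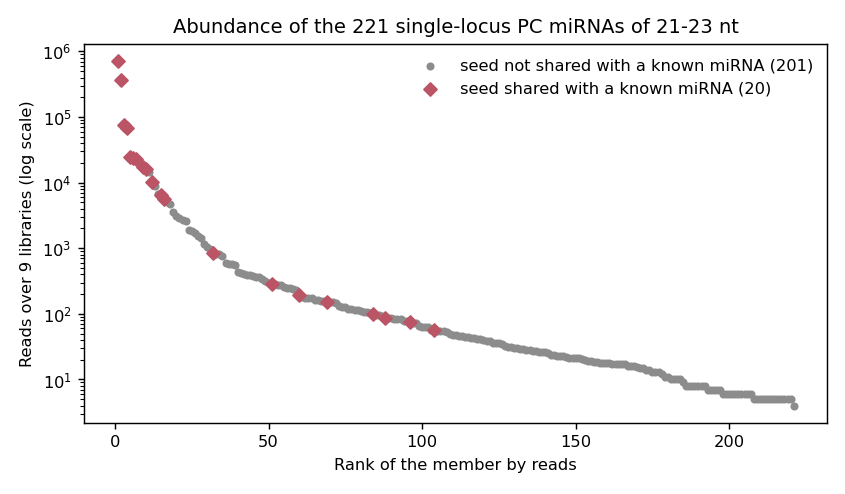
Reads over the 9 libraries (log scale) of each of the 221 members, ordered from the most to the least abundant. Diamonds are the 20 members whose seed is that of a known miRNA in the table. The first member held 709129 reads and the median member 47, and diamonds fill most of the top of the curve, with 10 of the 12 highest points.

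The members as a group took a small part of each library. Their share of the reads on listed miRNAs was 6.18%, 4.89% and 6.08% at 1 d, 6.90%, 8.62% and 8.29% at 3 d, and 8.49%, 8.81% and 8.21% at 5 d. All 3 libraries of 3 d and of 5 d were above those of 1 d, and 3 d and 5 d overlapped. The phase means were 5.72% ± 0.721, 7.94% ± 0.916 and 8.50% ± 0.301 (SD, n = 3), and no p is given for this sum over chosen members. Without PC-5p-15_408936 the means were 3.11% ± 0.456, 4.31% ± 0.315 and 4.17% ± 1.40, and 2 of the 5 d libraries then lay within the range of the 1 d libraries. With PC-3p-31_242819 also left out, the remaining members held 1.29% to 1.67% at 1 d, 1.97% to 2.20% at 3 d and 1.92% to 2.35% at 5 d. All libraries of 3 d and 5 d were then above those of 1 d.

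**Figure D2:**
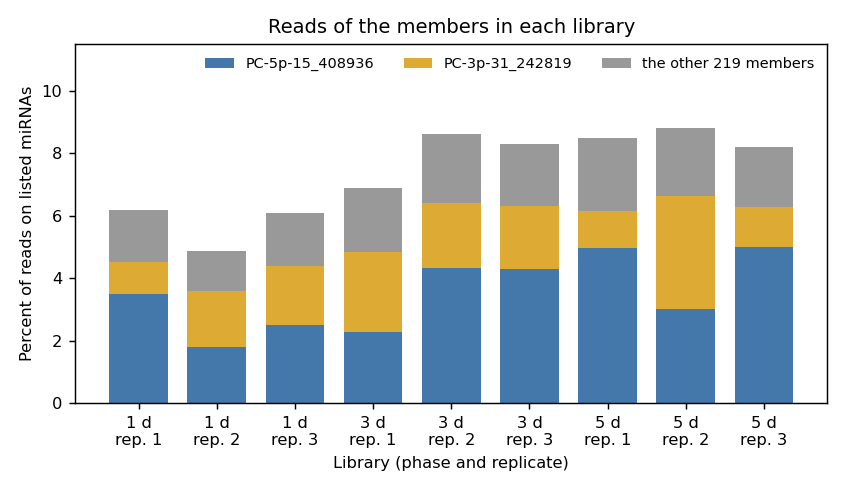
Percent of the reads on listed miRNAs that fell on PC-5p-15_408936, on PC-3p-31_242819 and on the other 219 members, stacked for each of the 9 libraries. The total is lowest in 1 d replicate 2 with 4.89% and highest in 5 d replicate 2 with 8.81%, the library in which PC-3p-31_242819 takes its largest part. When scaled by library totals, the median of all tested sequences was also higher at 3 d and 5 d than at 1 d.

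The most abundant member, PC-5p-15_408936 (23 nt, 5p arm, hairpin on the plus strand of scaffold NW_019105578.1 at start 831811, 110 nt, dG -53.8 kcal/mol), had the seed of miR-2765. Its level was 36960.4, 21683 and 27170.3 CPM at 1 d, 19399, 43263 and 41035 CPM at 3 d, and 47544, 28884 and 49596 CPM at 5 d. The lowest library was one of 3 d, and every pair of phases overlapped. The phase means were 28605 ± 7739, 34565 ± 13182 and 42008 ± 11412 CPM (SD, n = 3), and the log2 fold change between 5 d and 1 d was 0.55 ± 0.35 (log2, SE; adjusted p = 0.613) in edgeR.

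Its nearest relative among the members, PC-5p-202_34820, matched it at 21 of 23 positions and differed by G11A and A12C, counted from 1 at the 5′ end of PC-5p-15_408936. This member came from another scaffold, NW_019107076.1 (minus strand, start 204184), where the start of the hairpin of tca-miR-2765-5p was listed 3998 nt away. Its level was 2757, 2209.9 and 3481 CPM at 1 d, 1968, 5719.7 and 3636 CPM at 3 d, and 4226, 2977 and 4119 CPM at 5 d. It was far below its relative in every library, was lowest in the same library, 3 d replicate 1, and had overlapping phases. The log2 fold change between 5 d and 1 d was 0.42 ± 0.37 (log2, SE; adjusted p = 0.77). The known tca-miR-2765-5p itself held 108634 reads, fewer than PC-5p-15_408936 and more than PC-5p-202_34820.

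PC-3p-31_242819, the second in abundance (21 nt, 3p arm, dG -41.8 kcal/mol), had the seed of miR-279, which in Drosophila restricts the formation of CO2-sensing neurons and acts on JAK/STAT signalling. Its level was 10664, 21389.9 and 20759 CPM at 1 d, 21994, 21097 and 19366 CPM at 3 d, and 11184, 34372 and 12832 CPM at 5 d. Libraries of the same phase differed by more than the phases did, with 5 d replicate 2 the highest and 1 d replicate 1 the lowest of all 9. The log2 fold change between 5 d and 1 d was 0.14 ± 0.43 (log2, SE; adjusted p = 0.97), and it was -0.60 without 5 d replicate 2 and -0.18 without 1 d replicate 1. The ratio of PC-5p-15_408936 to PC-3p-31_242819 was 0.84 in 5 d replicate 2 and 4.25 in 5 d replicate 1, the lowest and the highest value of the 9 libraries.

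The hairpin of PC-3p-31_242819 lies on the minus strand of scaffold NW_019105631.1 at start 339471, and the listed hairpin of the known tca-miR-279b-3p_R-2_1ss19TA begins 1 nt from it. The known sequence is 20 nt long and is contained in the member, which has 1 base more at its 3′ end. Of the reads on both, the member held 86.8% to 94.6% in the 9 libraries. At 1260 nt from it on the same strand was the hairpin of PC-3p-343_19445, a second member with the miR-279 seed, which contains tca-miR-279d-3p_R-3_2ss12AT22AG with 1 base more at the 3′ end. There the known sequence was the larger, and the member held 13% to 30.2% of the reads on both.

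PC-3p-343_19445 stood at 769, 992 and 1347 CPM at 1 d, 889.7, 1831 and 1251 CPM at 3 d, and 980.3, 1826 and 1116 CPM at 5 d, with all pairs of phases overlapping and a log2 fold change between 5 d and 1 d of 0.34 ± 0.37 (log2, SE; adjusted p = 0.849). The 3 further members with this seed were less abundant, with 5568 reads for PC-3p-2920_1945, 196 for PC-3p-57388_137 and 56 for PC-3p-129295_51. PC-3p-129295_51 contains the known api-miR-996_R-2, of the sister miRNA that lies beside miR-279 in Drosophila, and the known sequence held 747 reads. PC-3p-57388_137 differs from its own listed hairpin at base 2 (T2G, hairpin base first), so that hairpin does not hold the miR-279 seed at this place. PC-3p-11640_618 differs from PC-3p-57388_137 by T2G, within the seed, counted from its 5′ end, and had 1038.5 reads. How the authors split reads between such near-identical sequences was not tested.

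Members with the seed of the miR-2/miR-13 family came next. In Drosophila this family acts on pro-apoptotic mRNAs such as reaper, grim and sickle. PC-3p-162_42907 (22 nt, dG -43.8 kcal/mol) shared the family seed but matched the known aga-miR-2c-3p_2ss12TC21GA at only 10 of 22 positions. Its level was 4498, 3225 and 2924 CPM at 1 d, 4327, 3295 and 3218 CPM at 3 d, and 6362, 3203 and 3720.4 CPM at 5 d, highest in 5 d replicate 1, and the log2 fold change between 5 d and 1 d was 0.32 ± 0.31 (log2, SE; adjusted p = 0.837). Its hairpin on scaffold NW_019108071.1 (minus strand, start 54655) was 3587 nt from that of PC-3p-1708_3191 and PC-5p-21862_364. Of the 100 other tested members, PC-3p-1708_3191 had the pattern most like it over the 9 libraries, with Pearson's r of log2(CPM + 1) of 0.94, given as a description.

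Scaffold NW_019106111.1 carried the known miR-2 hairpins and 4 members beside or within them. PC-3p-592_10301 contains aga-miR-2c-3p_2ss12TC21GA, has 1 base more at its 3′ end and held 2.32% to 4.41% of the reads on both. Its level was 943, 909 and 1225 CPM at 1 d, 833, 1485 and 1269 CPM at 3 d, and 847, 1376 and 1458 CPM at 5 d. PC-5p-6918_950 came from the 5p arm of the same hairpin with 1913 reads. PC-5p-614_9915 was the 5p strand of a miR-2 hairpin whose listed 3p product is tca-miR-2-3p_L-2R+1, and its level was 585, 797 and 924 CPM at 1 d, 987, 916 and 1246 CPM at 3 d, and 774, 1434 and 887 CPM at 5 d. Phases overlapped in every comparison for both abundant members, and their log2 fold changes between 5 d and 1 d were 0.26 ± 0.31 (log2, SE; adjusted p = 0.858) for PC-3p-592_10301 and 0.42 ± 0.31 (log2, SE; adjusted p = 0.668) for PC-5p-614_9915. The fourth member there, PC-5p-23640_339, held 585 reads.

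Other abundant members also came from hairpins of known miRNAs. PC-3p-505_12204 shares its hairpin and arm with dme-miR-278-3p_1ss21TC, a miRNA that in Drosophila acts in the fat body on energy metabolism, and differs from it by A22T, counted from the 5′ end of the member. Its level was 1239, 1500.4 and 1252 CPM at 1 d, 1069.8, 1576 and 999 CPM at 3 d, and 1027, 1849 and 871 CPM at 5 d, and it held 3.19% to 10.3% of the reads on both. PC-3p-430_14726 is the 3p strand of the miR-316 hairpin, whose 5p strand tca-miR-316-5p_R+2 held 16900 reads against its 17554. This member varied least of all tested members, at 849, 958 and 887 CPM at 1 d, 922, 936 and 881 CPM at 3 d, and 861, 1113 and 742 CPM at 5 d, with a coefficient of variation of 11% over the 9 libraries. PC-3p-1170_4877, a longer form of the listed tca-miR-981_R-4_1ss18CT, held 97.9% to 100% of the reads on both.

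Below the first 12, the members carried mostly seeds that no known miRNA of the table had. PC-3p-1782_3070 (22 nt, dG -49.3 kcal/mol) stood at 354, 434 and 439.7 CPM at 1 d, 508, 649.9 and 405 CPM at 3 d, and 526, 425 and 472 CPM at 5 d, PC-3p-1597_3439 (22 nt, dG -66.6 kcal/mol) at 248, 299 and 291 CPM at 1 d, 337, 365 and 269 CPM at 3 d, and 439, 509 and 316 CPM at 5 d, and PC-3p-2532_2216 (21 nt, dG -29.8 kcal/mol) at 179.5, 184 and 115 CPM at 1 d, 189, 153 and 162 CPM at 3 d, and 167, 146 and 177 CPM at 5 d. PC-3p-1597_3439 had all 5 d libraries above those of 1 d, and the other 2 overlapped in every comparison. PC-3p-1708_3191 had bases 2 to 8 in common with ame-mir-29b-p3_1ss17CT and stood at 338, 224 and 212 CPM at 1 d, 370.5, 197 and 266 CPM at 3 d, and 700.0, 263 and 360.0 CPM at 5 d, with its highest value in 5 d replicate 1, as for its neighbour PC-3p-162_42907. PC-3p-1061_5395, whose seed is that of PC-3p-2060_2700, was listed 79 nt from a miR-9c hairpin and stood at 74.1, 71.4 and 165 CPM at 1 d, 144, 198 and 148 CPM at 3 d, and 177, 186 and 154 CPM at 5 d, with overlap between all phases.
PC-3p-1782_3070: tCTATGTAaaagacccctcctc
PC-3p-1597_3439: tTTGAACTcttccaagccatca
PC-3p-2532_2216: aTACGAAAgacgttacctggg
These 3 sequences are examples of members without the seed of a known miRNA in the table, shown because their levels are given above.

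Some members were near copies of each other from different scaffolds, and others lay close together on 1 scaffold. PC-5p-3301_1748 on NW_019105618.1 had 1851.5 reads. PC-5p-134667_48 adds 1 base at its 3′ end, PC-5p-104426_67 adds 1 base at its 5′ end and so has a shifted seed, and PC-5p-185767_30 differs by C2T, counted from the 5′ end of PC-5p-3301_1748.
PC-5p-3301_1748: gCGAACACtcattgactgtaca
PC-5p-134667_48: gCGAACACtcattgactgtacaa
PC-5p-104426_67: aGCGAACActcattgactgtaca
PC-5p-185767_30: gTGAACACtcattgactgtaca
The 3 copies had 42.5, 47 and 46 reads in this order, and none passed the filter on low counts. PC-5p-3301_1748 stood at 79, 33.3 and 113 CPM at 1 d, 81.2, 105 and 113 CPM at 3 d, and 81.8, 114 and 86.8 CPM at 5 d, lowest in 1 d replicate 2, with overlap between all phases. Reads that match several of these sequences may be split between them, so each level is uncertain.

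Scaffold NW_019105660.1 held 4 members on the plus strand, at starts 452673, 454566, 455487 and 460563, which are shown in this order because their 3′ parts are alike while their seeds differ.
PC-3p-406596_8: tAATATAGgcctgtcaaatct
PC-3p-151163_41: tAGATCATtctgtcaaatcttt
PC-3p-121367_55: aCAATGCTcctgtcaaatcttt
PC-3p-275717_16: aTACTGCTcctgtccaatcttt
PC-3p-121367_55 and PC-3p-151163_41 matched at 13 of 14 positions from base 9 on and at 3 of 8 positions before it. PC-3p-121367_55 and PC-3p-275717_16 matched at 13 of 14 and 6 of 8. PC-3p-406596_8 had a run of 12 bases in common with PC-3p-121367_55, at a shifted position. All were rare, with 14, 20.5, 55 and 16 reads in the order of their starts, and none was tested. The reads of PC-3p-406596_8 were all in 1 d replicate 1 and those of PC-3p-275717_16 all in 5 d, so no phase can be compared.

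In all, the hairpins of 23 members (10.4%) overlapped that of a known miRNA, and these members held 34.4% of member reads. In 8 of them the member came from the same arm as a known miRNA, as in the cases above, and in 15 from the opposite arm alone. Examples of opposite strands are PC-5p-5284_1183 on the miR-750 hairpin with 2722 reads and PC-5p-7209_918 on the miR-124 hairpin, a miRNA of neurons in animals, with 1447 reads. A listed miRNA of any kind lay within 10 kb of 79 members. The overlap of hairpins was 11 to 123 nt, and the arm of each entry is that of its own listed hairpin. The overlap was 31, 28, 11 and 24 nt for PC-3p-5256_1188, PC-3p-51752_154, PC-3p-111558_62 and PC-3p-636791_5. These were counted under the opposite arm, but it is not shown that they share 1 hairpin with the known miRNA. Positions are the scaffold and hairpin start as the authors listed them. The sources used here do not give their genome build, and overlap with genes was not analysed here.

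Both arms could be compared where one hairpin gave a member from each, which was so for 13 of the 207 distinct hairpins. Of the members alone, the 3p strand held the larger part of the reads in 10 of these and the 5p strand in 3. In 6 of the 13 a known miRNA of the table lay on the same hairpin, always on the 3p arm, and with its reads added the 3p arm was the larger in 11 and the 5p arm in 2. The one that turned was the miR-996 hairpin, where PC-3p-129295_51 had 56 reads, PC-5p-30729_264 had 403 and api-miR-996_R-2 had 747. On the hairpin of PC-5p-15_408936 the 3p strand, PC-3p-2090_2658, held 3521 reads, which was 0.254% to 1.37% of the reads of both arms in single libraries. On that of PC-5p-202_34820 the 3p strand, PC-3p-3116_1838, held 1.72% to 8.41%. Of the members alone, the 3p share was 99.6% to 100% for PC-3p-343_19445, 86.5% to 95.5% for PC-3p-592_10301 and 95.1% to 99% for PC-3p-1170_4877. In these pairs the larger strand was the same in all 9 libraries.

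The miR-278 hairpin gave members from both arms beside its main product, dme-miR-278-3p_1ss21TC, which held 398135 reads. With that product counted, the 3p arm held 97.8% to 99.4% of the reads in single libraries. PC-5p-2333_2382, the 5p strand, held 5054 reads and PC-3p-505_12204 held 24210, so the 3p share of the 2 members without the main product was 81.5% ± 5.86 at 1 d, 81.2% ± 4.63 at 3 d and 86.1% ± 6.13 at 5 d (SD, n = 3). The phases overlapped. The 5p strand PC-5p-2333_2382 alone stood at 397, 216 and 289 CPM at 1 d, 227, 275 and 314 CPM at 3 d, and 204, 136 and 193 CPM at 5 d, with all 5 d libraries below those of 1 d and of 3 d. Its log2 fold change between 5 d and 1 d was -0.76 ± 0.33 (log2, SE; adjusted p = 0.41), which was not called.

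The 3p arm gave 124 members (56.1%) and the 5p arm 97. This share lay close to that of the known miRNAs (55.1%) and of the single-locus PC miRNAs of 18 to 20 nt (53.5%), and above that of 24 to 26 nt (46.2%), with no test. By reads the order was different, since 43.6% of member reads were on 3p members. By length, the 3p share of reads was 99.5% among members of 21 nt, 86.3% among those of 22 nt and 6.11% among those of 23 nt. The most abundant member of each length was PC-3p-31_242819, PC-3p-162_42907 and PC-5p-15_408936 in this order.

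Many miRNAs begin with U, the base that Argonaute proteins favour at the 5′ end. Among the members 120 (54.3%) began with U, 48 with A, 29 with C and 24 with G. The share with U was 54.6% among known miRNAs, 39.5% among single-locus PC miRNAs of 18 to 20 nt and 76.9% among those of 24 to 26 nt. By reads, 89.1% of member reads began with U, and the share in single libraries was 85.1% to 91.6%. Members of 22 nt were the exception, with 41.3% of their reads on sequences that began with U, and the most abundant of them, PC-3p-162_42907, begins with C.

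The free energy (dG) of the predicted hairpins, which is lower for a more stable fold, had a median of -34.1 kcal/mol in the members and ran from -97.2 to -15.0. The hairpins had a median length of 86 nt, from 51 to 154. The median dG was -22.0 in single-locus PC miRNAs of 18 to 20 nt, -28.9 in those of 24 to 26 nt and -33.9 in known miRNAs. The highest dG was -15.0, -15.2 and 2.2 in this order. All PC classes thus end near -15 kcal/mol and the known miRNAs do not, so their medians are not of like sets. Whether the prediction of candidates set that end was not tested. Per base of hairpin the members had a median of -0.39 kcal/mol, against -0.27, -0.34 and -0.41 in these classes.

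The 6 members with the lowest and the highest dG had between 6 and 438 reads. The 3 lowest values of dG were -97.2 kcal/mol for PC-3p-472038_6 with 6 reads, all in 3 d replicate 2, -91.0 for PC-5p-76284_99 with 438 reads, and -83.8 for PC-3p-135039_48 with 97 reads. The 3 highest were -15.0 for PC-3p-195228_28 with 28 reads, -15.1 for PC-5p-385479_9 with 14 reads in 5 d replicate 1 alone, and -15.4 for PC-3p-266699_17 with 17 reads in 5 d replicate 2 alone. The median number of reads was 8 in the 11 members under -60 kcal/mol, 126.5 in the 60 members from -60 to -40, 55.5 in the 94 members from -40 to -25 and 20 in the 56 members at -25 or higher. The 11 members under -60 kcal/mol were not all rare, since PC-3p-1597_3439 at -66.6 kcal/mol had 6642 reads.

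**Figure D3:**
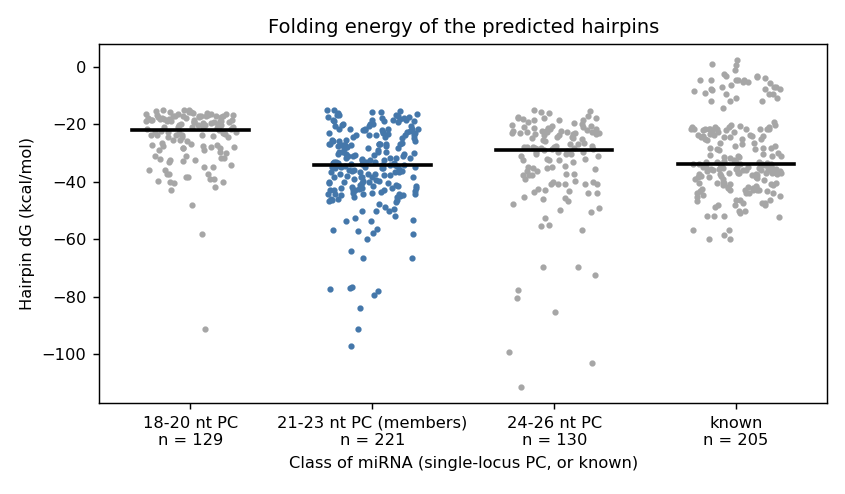
Folding energy of the predicted hairpin (dG, kcal/mol) of each miRNA in 4 classes, with a bar at the median. The members (221, second column) have a median of -34.1 kcal/mol, below the -22.0 of the 18 to 20 nt class and near the -33.9 of the known miRNAs, which are shown at their first listed entry. The members end at -15.0 kcal/mol and the known miRNAs at 2.2.

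The mature sequence was found whole in the listed hairpin for 148 members, and each of the other 73 (33.0%) differed from it at 1 base. Of these differences 15 were at the last base, where the member had A in 10 cases, T in 4 and C in 1. Of the abundant members, 3 were of this kind, counted from the 5′ end with the hairpin base first, namely PC-3p-505_12204 (T22A), PC-3p-343_19445 (T23A) and PC-3p-592_10301 (T23A). A base added or changed at the 3′ end is a common form of isomiR. A further 23 differences lay in bases 1 to 8. Of 8 members ending in CCA, 5 differed from their hairpin at 1 base, and in 4 of these the difference made the CCA end, the trinucleotide that is added to tRNAs. They are PC-3p-20398_387 (A21C, 602.5 reads), PC-3p-81138_92 (T22A, 176.5 reads), PC-3p-89681_81 (T21A, 107 reads) and PC-5p-187815_30 (T23A, 20 reads).

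Detection in a phase required at least 1 read in each of its 3 libraries. This was met by 73 members in 1 d, 81 in 3 d and 83 in 5 d, and 63 members were detected in all 9 libraries. In no phase were 125 members detected. The members detected in 1 phase alone, 3 in 1 d, 7 in 3 d and 8 in 5 d, all had reads in another phase. All reads of 48 members were in a single library. With 1 library left out, which by construction raises the count, 74 to 112 members were detected in 1 d, 83 to 102 in 3 d and 92 to 110 in 5 d, and the 112 were those without the shallow 1 d replicate 2. The ranges overlap, and the order of the phases was not tested.

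For the phase comparisons, 101 of the 221 members passed the filter on low counts, with 341 of the 759 distinct sequences in the table. The 101 members held 99.8% of member reads, had a median of 290 reads and were 22 of 21 nt, 49 of 22 nt and 30 of 23 nt. The 120 members under the filter had a median of 17.5 reads and at most 62. The coefficient of variation over the 9 libraries had a median of 51.8% in the tested members and was between 11% and 37.8% in the 12 most abundant.

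No member was called in any comparison at an adjusted p below 0.05 (edgeR quasi-likelihood test, Benjamini-Hochberg over all 341 sequences). Between 3 d and 1 d, 0 of 101 members were called beside 0% of all tested sequences, for 5 d against 1 d 0 beside 1.47%, for 5 d against 3 d 0 beside 0%, and over all 3 phases 0 beside 1.17%. DESeq2 called 0, 1, 0 and 1 members, and limma on log2 of the normalized count plus 1 called 0 in each. The shares of all sequences that these methods called are not given here, so no general rate stands beside these member counts. At an unadjusted p below 0.05 there were 6, 9, 3 and 4 members, or 5.94%, 8.91%, 2.97% and 3.96% of those tested. The same shares of all tested sequences were 8.5%, 11.4%, 2.35% and 8.21%.

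The median log2 fold change of the 101 members was 0.22 in 3 d vs. 1 d (quartiles -0.18 and 0.66), beside 0.057 over all sequences. Between 5 d and 1 d it was 0.15 (quartiles -0.29 and 0.73), beside 0.046, and between 5 d and 3 d -0.023, beside -0.041. The medians were the same with the members that had 0 reads in a phase set at the limit of 3 reads. With a log2 fold change above 0 there were 66, 62 and 46 members, beside 55.1%, 54% and 45.5% of all sequences. Scaling by library totals moved the median of all sequences to 0.31 and 0.23 in the first 2 comparisons, and that of the members to 0.46 and 0.36. The first 2 comparisons share the 1 d libraries.

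**Figure D4:**
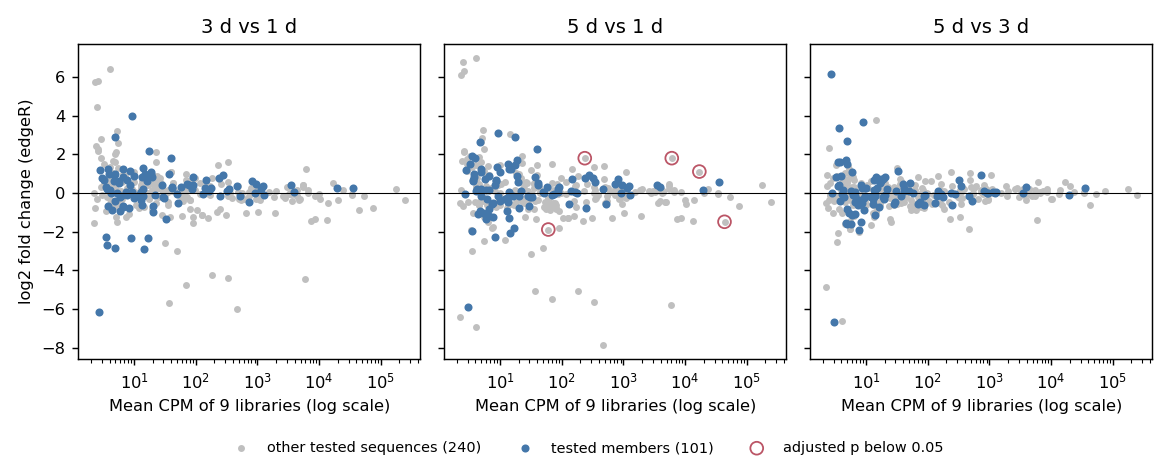
Log2 fold change in edgeR against the mean CPM of the 9 libraries (log scale) for the 101 tested members (blue) and the other 240 tested sequences (grey), for each pair of phases. The red rings mark the 5 sequences with an adjusted p below 0.05, all in 5 d vs. 1 d and none of them a member.

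The libraries of 2 phases were apart for 10 members between 3 d and 1 d, 17 between 5 d and 1 d and 7 between 5 d and 3 d, beside 10.3%, 18.2% and 5.87% of all tested sequences. At 3 d, 9 of the 101 members were above 1 d in all 3 libraries (8.91%, beside 6.45% of all tested sequences) and 1 was lower (0.99%, beside 3.81%). At 5 d, 13 were above 1 d (12.9%, beside 10.6%) and 4 lower (3.96%, beside 7.62%). Against 3 d, 4 were higher at 5 d (3.96%, beside 3.23%) and 3 lower (2.97%, beside 2.64%). With library totals as the scale these became 19 higher and 0 lower, 20 higher and 2 lower, and 3 higher and 4 lower. Over all 341 tested sequences the same scale gave 42 higher and 5 lower, 52 higher and 12 lower, and 10 higher and 13 lower. The members named in the next paragraphs were taken from these by p, and their values are descriptions where no test passed.

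PC-3p-99602_71 (21 nt, 3p arm, dG -23.3 kcal/mol, 365 reads) had the lowest adjusted p of the members, and its sequence, with the seed in capitals, was as follows.
PC-3p-99602_71: tCTGTTGTtatcatgtggtgg
It differs from its listed hairpin at 1 base (T18G, hairpin base first). It had 4.52, 0 and 6.83 CPM at 1 d, 18.2, 19.1 and 18.3 CPM at 3 d, and 32, 36.7 and 22.9 CPM at 5 d. The phases did not overlap in any pair, with 1 d lowest and 5 d highest, and 1 d replicate 2 had 0 reads. In edgeR the log2 fold change was 2.17 ± 0.80 (log2, SE; adjusted p = 0.49) from 1 d to 3 d and 2.89 ± 0.81 (log2, SE; adjusted p = 0.182) from 1 d to 5 d. It was called in 5 d vs. 1 d by DESeq2 (adjusted p = 0.00655), by limma with 10 added to the count (adjusted p = 0.0231) and by the newer quasi-likelihood estimator of edgeR (adjusted p = 0.0340), and by no other alternative. The adjusted p ran from 0.00655 to 0.468 over them.

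A set of members on scaffold NW_019105738.1 had their lowest libraries in 1 d. PC-3p-2920_1945, with the miR-279 seed, was listed at start 475478 on the plus strand. PC-3p-91528_79, with the seed of the 3p arm of miR-9, followed at 1616 nt, and PC-3p-2060_2700, with the seed shifted by 1 base, at 8001 nt. In Drosophila miR-9 limits the number of sensory organ precursors, acting through its 5p strand.

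PC-3p-2920_1945 stood at 154, 163 and 196 CPM at 1 d, 246, 333 and 408 CPM at 3 d, and 264, 428 and 268 CPM at 5 d. PC-3p-2060_2700 stood at 145, 147 and 196 CPM at 1 d, 243, 284 and 306 CPM at 3 d, and 231, 346 and 263 CPM at 5 d. PC-3p-91528_79 stood at 10.5, 6.16 and 8.04 CPM at 1 d, 11.7, 28.9 and 9.0 CPM at 3 d, and 21.1, 18 and 21.1 CPM at 5 d. In the first 2 of these, every library of 3 d and 5 d was above every library of 1 d, and in the third this held for 5 d only. The log2 fold changes between 5 d and 1 d were 0.91 ± 0.32 (log2, SE; adjusted p = 0.33), 0.78 ± 0.29 (log2, SE; adjusted p = 0.346) and 1.26 ± 0.58 (log2, SE; adjusted p = 0.47) in this order, and none was called. Of the other members within this stretch, PC-3p-151612_41 is on the minus strand with 84 reads and overlapped in all phases, and PC-5p-222849_23 had 25.5 reads, none of them in 1 d. Members of 1 cluster may come from 1 transcript and are not independent of each other.

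PC-3p-576_10624, with the seed of the 3p arm of miR-9 and 15914.5 reads, was the only one of the 10 most abundant members with phases that lay apart. Its level was 568, 573 and 623 CPM at 1 d, 1023, 931 and 729 CPM at 3 d, and 1258, 770.0 and 869 CPM at 5 d, so that 3 d and 5 d were each above 1 d in all libraries. From 1 d the log2 fold change was 0.60 ± 0.27 (log2, SE; adjusted p = 0.573) to 3 d and 0.72 ± 0.27 (log2, SE; adjusted p = 0.346) to 5 d. Its sequence is contained in the 23-nt PC-3p-14046_533 from another scaffold, so that a read of the shorter sequence fits both hairpins. PC-3p-14046_533 held 835.5 reads and had 41.8, 20.9 and 38.2 CPM at 1 d, 26.6, 45.5 and 49.8 CPM at 3 d, and 57.3, 28.4 and 62 CPM at 5 d, with all phases overlapping. Its pattern was the nearest to that of PC-5p-15_408936 among 100 members (Pearson's r = 0.931 over 9 libraries), and that of PC-3p-430_14726 was the nearest to PC-3p-31_242819 (r = 0.826).

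**Figure D5:**
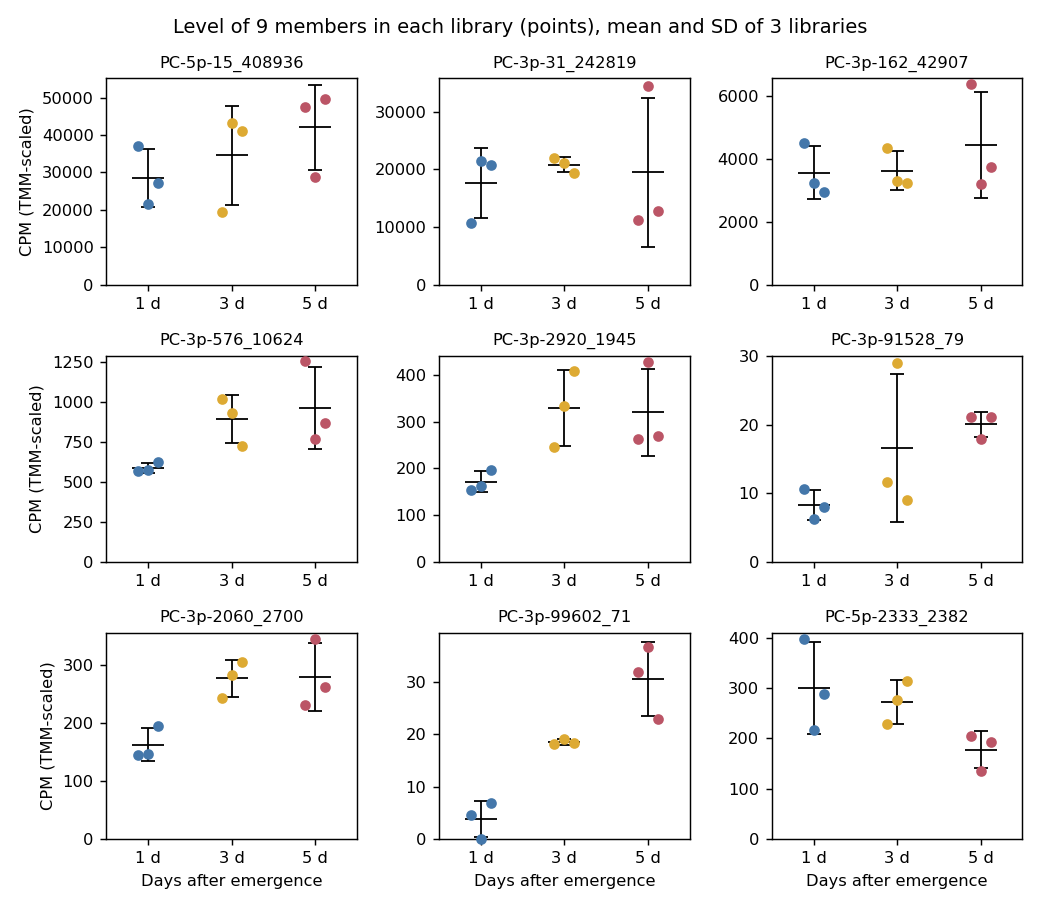
TMM-scaled CPM of 9 members in each library (points) by phase, with the mean and SD of the 3 libraries (n = 3). The upper row holds the 3 most abundant members, whose phases overlap. In PC-3p-576_10624, PC-3p-2920_1945 and PC-3p-2060_2700 the 1 d points are below all others, in PC-3p-99602_71 the 3 phases are apart, and in PC-5p-2333_2382 the 5 d points are below all others.

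Members with fewer reads and a lower 1 d were next. PC-3p-15330_496 had 14.3, 0 and 22.9 CPM at 1 d, 62.4, 41.8 and 33.6 CPM at 3 d, and 67.4, 83.5 and 37.8 CPM at 5 d, with a log2 fold change of 2.28 ± 0.93 (log2, SE; adjusted p = 0.41) in 5 d vs. 1 d. PC-3p-63800_122 had 0, 0 and 2.81 CPM at 1 d, 24.7, 18.6 and 9.60 CPM at 3 d, and 18.5, 5.85 and 4.34 CPM at 5 d. In it 7 reads in 1 d stood against 106 in 3 d and 70 in 5 d, and the log2 fold change was 3.97 ± 1.29 (log2, SE; adjusted p = 0.49) in 3 d vs. 1 d. PC-5p-30729_264, the 5p strand of the miR-996 hairpin, had 14.7, 7.39 and 12.1 CPM at 1 d, 11.7, 29.4 and 33 CPM at 3 d, and 20.3, 25.5 and 17.4 CPM at 5 d, with 5 d above 1 d and 3 d overlapping both.

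The members below 1 d were PC-3p-71007_108, PC-3p-89681_81 and PC-5p-68294_113, beside PC-5p-2333_2382. PC-3p-71007_108 differs from its listed hairpin at 1 base in the seed (A2C, hairpin base first). It had 21.1, 41.9 and 37.8 CPM at 1 d, 20.8, 0 and 0 CPM at 3 d, and 8.67, 3.34 and 16.7 CPM at 5 d, and 2 of its 3 d libraries had 0 reads. Its log2 fold change between 3 d and 1 d was -2.31 ± 1.56 (log2, SE; adjusted p = 0.88), and it was called only without 3 d replicate 1 (adjusted p = 0.0474, against up to 1 in its other alternatives), which leaves 0 reads in 3 d. PC-3p-89681_81 had 7.53, 11.1 and 4.82 CPM at 1 d, 3.90, 8.27 and 7.80 CPM at 3 d, and 3.01, 4.18 and 1.86 CPM at 5 d, with a log2 fold change of -1.33 ± 0.80 (log2, SE; adjusted p = 0.613) in 5 d vs. 1 d. PC-5p-68294_113 had 19.6, 16 and 14.5 CPM at 1 d, 7.15, 16.5 and 15 CPM at 3 d, and 13.9, 12.1 and 0 CPM at 5 d, and its log2 fold change there was -0.92 ± 1.05 (log2, SE; adjusted p = 0.858).

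Between 3 d and 5 d, PC-3p-2510_2230 was the most abundant member whose libraries lay apart. This 21-nt 3p member with 14663 reads had 719, 505 and 918 CPM at 1 d, 714, 322 and 527 CPM at 3 d, and 967, 1053 and 925 CPM at 5 d, so that 5 d was above both other phases in every library and 3 d and 1 d overlapped. The log2 fold change between 5 d and 3 d was 0.91 ± 0.34 (log2, SE; adjusted p = 0.993). PC-3p-71020_108 and PC-3p-91828_79 were also higher in all 5 d libraries, from 7 to 103 reads and from 15 to 40 reads, with log2 fold changes of 3.68 ± 1.77 (log2, SE; adjusted p = 0.993) and 1.62 ± 1.37 (log2, SE; adjusted p = 0.993). In the other direction, PC-5p-162901_37 had 5.65, 6.16 and 10.9 CPM at 1 d, 14.3, 13.9 and 8.10 CPM at 3 d, and 5.65, 3.76 and 0 CPM at 5 d, with -1.89 ± 1.05 (log2, SE; adjusted p = 0.993). PC-3p-71874_106 had 0, 0 and 3.62 CPM at 1 d, 9.10, 9.30 and 12.3 CPM at 3 d, and 3.01, 6.68 and 0 CPM at 5 d, highest in all 3 d libraries, with -1.63 ± 1.51 (log2, SE; adjusted p = 0.993) in 5 d vs. 3 d. None of these was called.

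The members with the largest fitted changes had 0 reads in a phase. These 2 were picked after their values were seen. PC-3p-186037_30 was read 30 times at 1 d, 0 times at 3 d and 23.5 times at 5 d (reads shared between entries are split), and PC-5p-180206_32 was read 25, 47 and 0 times. For both, another phase also had a library with 0 reads, so that the phases overlapped. A phase with no read is compatible with up to 3 reads, and no fold is given. Neither was called in any comparison.

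The list of differentially expressed miRNAs of the study was drawn up on these same libraries and is no independent evidence of a direction. It holds 11 of the 221 members, of which 10 passed the filter, 5 had an unadjusted p below 0.05 in a pairwise comparison and 0 were called in edgeR. The share of all names that this list holds is not given here, so these counts are no result about the members. The member under the filter, PC-5p-335567_12, had 24 reads in 1 d and 6 each in 3 d and 5 d, and it was read in all 3 libraries of 1 d but in 1 library of each other phase. The others are given above.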

How the data were processed

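The 9 libraries were sequenced as single-end reads of small RNAs according to the methods of the study, whereas the labels describe a poly(A) paired-end protocol. With ACGT101-miR the authors cleaned and collapsed reads, and they deposited 1 table of 905 entries for 767 names and 759 distinct sequences. Its estimated counts are deposited as raw reads per library, not whole for 40 members because the authors split shared reads between entries. The deposited normalized columns (signal) are those counts scaled by the authors between libraries, and they were used as an alternative only. The percentage of G and C in the hairpin is as deposited, and the deposited dG (a score in kcal/mol) is the folding energy the authors computed. No column of fold changes or p-values was used, and 0 columns belonged to other samples.

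Entries of 1 sequence were merged and counts rounded to whole numbers. edgeR 4.0.16 in R 4.3.3 (TMM factors, filterByExpr, quasi-likelihood F-test with phase as the only term) was fitted on all 9 libraries and 341 sequences, with Benjamini-Hochberg adjustment over all of them, and a call was an adjusted p below 0.05. The standard error is the log2 fold change divided by the root of F. Replicate numbers are in the labels. Same-numbered libraries deviated together, with r over 0.1, in 5 of 9 pairs, which does not settle whether they were paired. No pairing was used in the main fit, and a replicate block was an alternative. Scripts were tested on simulated data with a smaller spread than these libraries, which cannot show what changes could be called here.

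Alternatives were DESeq2 1.42.0, limma 3.58.1, other scaling factors, other filters, a replicate block, a newer dispersion estimator and leaving out each library. The members and lists were chosen with earlier results of these data known. Named members are the 10 most abundant, in each comparison and direction the 4 of lowest p among those whose libraries did not overlap, those in the list of the study, the 3 lowest and 3 highest in dG, those with a known seed or a neighbour within 10 kb, and the nearest in pattern to the 3 most abundant. Examples of arms, copies, 3′ ends and rare members were chosen after their values were seen.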

Additional observations from a re-analysis of the deposited data

How the results depend on the processing

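The absence of calls held under most settings. In place of 0, an unadjusted p below 0.05 gave 6, 9 and 3 members between 3 d and 1 d, between 5 d and 1 d and between 5 d and 3 d, and 4 over the 3 phases. DESeq2 called 1 between 5 d and 1 d and 1 over the 3 phases, and limma with 10 added and the newer quasi-likelihood estimator called 1 each between 5 d and 1 d, in every case PC-3p-99602_71. For these settings the shares of all sequences called are not given. With 1 library left out the counts were 0 to 1 in 3 d vs. 1 d, where 1 rests on leaving out 3 d replicate 1, and 0 to 0 in the others. The replicate block gave 0 calls in all 4 tests. The r of same-numbered deviations was -0.384 to 0.416, which cannot show whether the replicate numbers stand for more than a label.

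Members whose libraries did not overlap numbered 19 in 3 d vs. 1 d with library totals, against 10. Of all tested sequences, 42 were then higher and 5 lower, against 22 and 13. With 1 library left out, which by construction leaves fewer points to overlap, the members apart numbered 14 to 32, 24 to 31 and 11 to 23 in the 3 comparisons. The shares of all tested sequences with a library left out are not given, so these counts are no result about the members. The members' share of reads without PC-5p-15_408936 was 3.11%, 4.31% and 4.17%, and over all entries of the table it was 8.03% in 5 d. A read in any library detected 166, 169 and 185 members, 10 reads in each library 48 in 1 d, and leaving out a library 74 to 112 in 1 d. By reads, 43.6% were on the 3p arm and 89.1% began with U. The median dG was -36.0 in tested members, -35.9 in those of 22 nt and -0.39 per base.

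Of 868 alternatives for the 42 fold changes of single members, 836 kept direction and side of the threshold, 4 passed it and 28 turned the direction, in 8 results near 0 or with few reads. For 5 d vs. 1 d with 1 library left out, the log2 fold change was -0.60 to 0.42 for PC-3p-31_242819, -0.042 to 0.46 for PC-3p-162_42907, -0.54 to 0.037 for PC-3p-505_12204, -0.019 to 0.50 for PC-3p-343_19445, -0.21 to 0.059 for PC-3p-430_14726, -0.052 to 2.18 for PC-3p-71020_108, -0.35 to 0.72 for PC-5p-76284_99 and -1.74 to 2.08 for PC-3p-135039_48. Scaling turned PC-3p-505_12204 from -0.091 to 0.022 (factors of the authors) and 0.11 (library totals). PC-3p-430_14726 turned to -0.032 with a minimum of 10 CPM and -0.0023 with the replicate block, PC-5p-76284_99 to -0.11 with the newer estimator, and PC-3p-135039_48 to 0.19, 0.20 and 0.075 in limma with 1, 0.5 and 10 added and to 1.79 with the replicate block. The cause was not tested. The common biological coefficient of variation was 0.690 with 3 libraries a phase, and the 120 members under the filter on low counts were not tested.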
